A study of Mus musculus with 20 samples.

Results

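The 44 genes described here belong to the integrated stress response and to the amino acid economy that it governs: its transcription factors, kinases and effectors, the enzymes of serine, proline, asparagine and cysteine synthesis, the folate one-carbon enzymes, amino acid transporters, and the synthetases that charge tRNA in the cytosol. They were chosen as a list of symbols by function, out of 43472 genes in the count table. All 44 were found there, and all 44 were among the 15261 genes that passed the filter on low counts and were tested. By role the list holds 4 transcription factors, 6 kinases and stress effectors, 8 enzymes of amino acid synthesis, 7 folate enzymes, 7 transporters and 12 cytosolic synthetases.

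Transcripts were measured by bulk RNA sequencing of the ventral prostate, an androgen-dependent lobe of the gland. All males had been orchidectomised, so that none had testicular androgen, and for 4 days they then received either vehicle or testosterone. The wild type males were C57BL/6J (WT), and the ARNoC/Y males (ARNoC) carry on their single X chromosome an androgen receptor that cannot bring its amino end and its ligand-binding end together. Each of the 4 combinations of genotype and treatment was represented by 5 libraries. Age, and the strain background of ARNoC, is not given in the sources used here. Every cell of these males carries the ARNoC allele, and its amino acid change cannot be checked in counts per gene. Since the labels do not tie each library to an animal of its own, the p-values cover the spread from library to library, which may in part be technical.

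In the integrated stress response, kinases such as Perk (Eif2ak3), which senses unfolded protein in the endoplasmic reticulum, and Gcn2 (Eif2ak4), which senses uncharged tRNA, phosphorylate the initiation factor eIF2. Most translation then slows, while Atf4 mRNA is translated more, and the Atf4 protein raises transcription of enzymes, transporters and synthetases that supply charged tRNA. The prostate epithelium makes secretory protein in bulk when androgen is present, which draws on the same supply of amino acids. Atf4 activity is set largely by translation, so the counts below describe its mRNA and not its activity.

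Libraries held 8861646 to 21600352 counts. The values below are normalized counts, that is counts divided by a library size factor that the authors computed, and changes are log2 fold changes ± SE from edgeR's quasi-likelihood test, called at a Benjamini-Hochberg adjusted p under 0.05 over all tested genes. Changes are relative to the median gene. In the testosterone libraries the 10 most abundant genes took 18.4% to 28.1% of all counts, against 6.81% to 10.4% with vehicle, so scaling by total counts in place of trimmed means moves the median of all genes to -0.44 (log2) in WT and -0.36 in ARNoC. Under that scaling 5 of the called members turn direction in each genotype, as do 9 members in WT and 5 in ARNoC that had not passed the test. Of the 9 prostate epithelial markers checked all were detected in each group, and the 8 seminal vesicle markers summed to at most 50.7 normalized counts in any library, with Svs1, Svs3a and Svs3b at 0 throughout. Markers of other tissue were present and uneven between libraries. The 4 adipocyte markers summed to 70.7 to 21426 normalized counts per library. The 4 skeletal muscle markers summed to 107.7 to 6789 and the 4 urothelial markers to 3763 to 13259.

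Promoter windows are shown here because Atf4 binds, with a C/EBP partner, to a known composite element. RefSeq promoters (GRCm38.p6, the same assembly as mm10), from 250 bases before to 50 bases after the transcript start, were at hand for 36 of the 44 members. The letters TGATGNAAN, a short form of that C/EBP-ATF element, were found on either strand in 11 of those 36 (30.6%), against 4.5% of 27025 genes and 3.95% of all 32851 windows of the same length. The 11 were Aars, Asns, Chac1, Gars, Iars, Pycr1, Slc1a4, Slc7a11, Tars, Trib3 and Yars. The E-box CACGTG was found in 5 of 36 (13.9%, against 8.09% of genes) and the CCAAT box in 23 of 36 (63.9%, against 41.1%), and 0 matches of different motifs shared bases. Matches describe letters in a window and do not show that a factor is bound there. The list was chosen by function, as genes of this response. Its share of the element may follow from that choice and cannot be read as a result of the testosterone response. Of the 11, Chac1 passed in neither genotype, Slc7a11 did not pass in WT, and Trib3 fell in ARNoC. Printed below, 5′ to 3′ on the strand of the gene, are stretches of 6 members, upstream of the start, that hold the element, with the element in capitals (or its reverse complement, where it lies on the other strand).
Pycr1, chr11:120643808-120643887, minus strand: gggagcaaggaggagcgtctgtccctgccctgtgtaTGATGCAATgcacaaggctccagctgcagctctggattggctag
Asns, chr6:7693214-7693243, minus strand: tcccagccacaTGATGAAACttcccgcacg
Slc7a11, chr3:50443627-50443706, minus strand: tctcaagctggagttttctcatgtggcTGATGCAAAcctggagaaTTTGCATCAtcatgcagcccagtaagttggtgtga
Chac1, chr2:119351012-119351091, plus strand: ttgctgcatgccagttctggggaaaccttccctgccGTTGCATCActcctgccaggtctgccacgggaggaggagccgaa
Gars, chr6:55037921-55038000, plus strand: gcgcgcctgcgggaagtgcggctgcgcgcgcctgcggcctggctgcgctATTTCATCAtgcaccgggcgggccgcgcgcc
Tars, chr15:11399659-11399688, minus strand: gggccaggagtcccGTTGCATCAgctggtt
Slc7a11, which encodes the cystine importer, carried the element 2 times facing opposite ways, while each of the other stretches carried it once. The stretches of Asns and Tars are kept to 30 bases since they touch an annotated exon. No stretch is printed for the other 5 members, of which Slc1a4, Iars, Yars and Trib3 have their matches across or after the start. Of the 21 members with a window that rose in WT, 8 held the element, and of the 25 that rose in ARNoC, 9 held it.

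**Figure D1:**
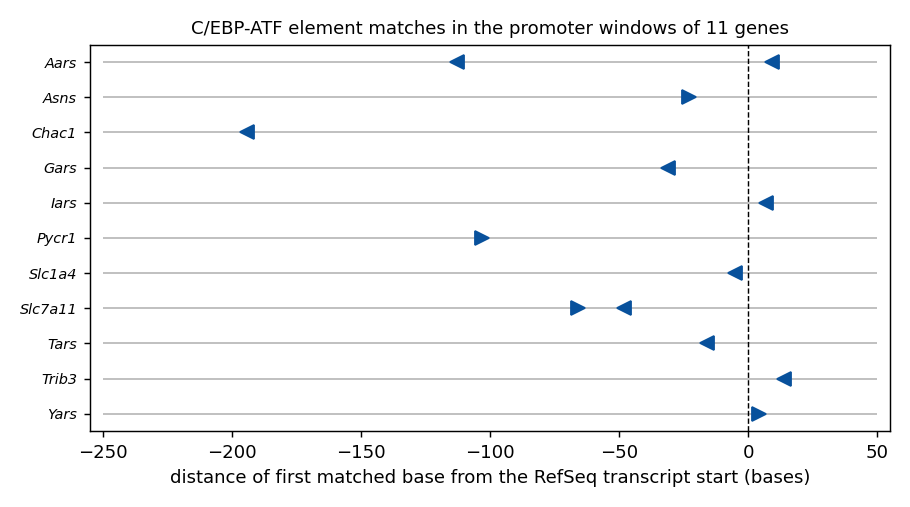
Position of each match to the C/EBP-ATF element in the promoter windows of the 11 members that hold it, in bases from the RefSeq transcript start (dashed line), with triangles pointing right for the gene's own strand and left for the other. Aars and Slc7a11 each show 2 matches and the other genes show 1.

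With testosterone most of the list went up in both genotypes. In WT, 27 of the 44 members rose and 2 fell (Atf5 and Slc3a2), while 15 did not pass the test. In ARNoC, 32 rose, 1 fell (Trib3) and 11 did not pass. Of all tested genes 20.4% rose and 18.8% fell in WT, and 19.4% rose and 16.8% fell in ARNoC. The median change of the 44 members was 0.48 (log2) in WT and 0.42 in ARNoC, where the median of all genes was -0.02 and -0.01. The same 27 genes rose in both genotypes, and the 5 further rises in ARNoC were Aldh1l1, Aldh1l2, Sesn2, Shmt1 and Slc7a11, for none of which the difference between the responses passed the test. Under total-count scaling 12 members rose and 8 fell in WT and 16 rose and 6 fell in ARNoC, so 15 of the 27 rises in WT and 16 of the 32 in ARNoC were lost there, while over all genes 1099 rose and 9120 fell in WT and 1178 rose and 7548 fell in ARNoC, against 3114 and 2871 in WT and 2962 and 2565 in ARNoC with the trimmed means.

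By role the highest median was that of amino acid synthesis, where all 8 enzymes rose in each genotype, by 0.51 to 2.45 in WT and by 0.38 to 1.58 in ARNoC, although under total-count scaling Psph passed in neither genotype and Psat1 not in WT. Of the 7 folate enzymes 2 rose in WT and 5 in ARNoC (medians 0.27 and 0.87), with Mthfd1 below 0 in both under total-count scaling. Of the 7 transporters 4 rose and 1 fell in WT and 5 rose in ARNoC (medians 0.60 and 0.59), of which Slc1a5 in WT and Slc7a1 and Slc7a11 in ARNoC did not pass under total-count scaling. The cytosolic synthetases rose in 10 of 12 in each genotype (medians 0.48 and 0.36), but under total-count scaling the rise passed only for Mars1 in WT and only for Aars and Gars in ARNoC. Of the 6 kinases and effectors 2 rose in WT, and 3 rose and 1 fell in ARNoC (medians 0.39 and 0.35), of which under that scaling only the rise of Eif2ak3 in WT and the fall of Trib3 in ARNoC passed. The transcription factors did not share the rise: Atf4 alone rose, in neither genotype under total-count scaling, and their median was -0.45 in WT and -0.17 in ARNoC. This is tissue RNA, in which fewer cells of a type and less RNA per cell cannot be told apart.

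**Figure D2:**
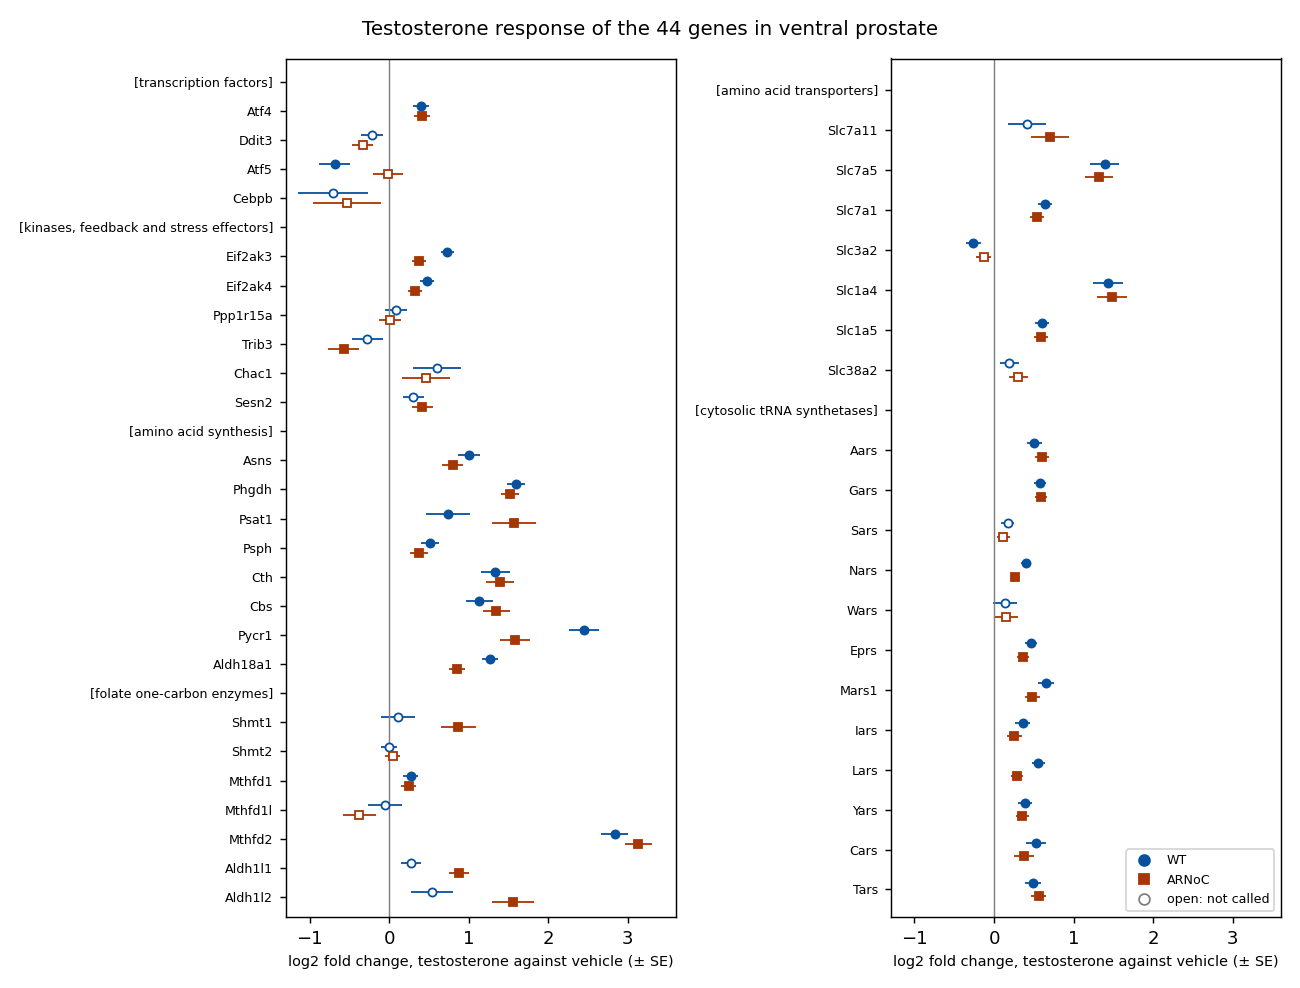
Log2 fold change with testosterone against vehicle (horizontal axis, bars ± SE) for the 44 members grouped by role, with WT as circles and ARNoC as squares, filled where the adjusted p is under 0.05. Mthfd2 lies farthest right at 2.84 and 3.13, and the transcription factors and Slc3a2 hold most of the points left of 0; under total-count scaling Atf4, Mthfd1, Nars, Iars and Yars in WT and Eif2ak4, Mthfd1, Nars, Iars and Lars in ARNoC turn below 0.

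Among the transcription factors, Atf4 (chr15:80255184-80257541), the main effector of the response, rose by less than 1.5-fold in each genotype. Its normalized counts were 1694, 1913, 1639.5, 1649 and 1419.7 in the WT vehicle libraries and 2076, 2397, 2075, 2146 and 2229 in those with testosterone. In ARNoC they were 1797, 1735, 1529.8, 1529 and 1598 with vehicle and 2039.7, 2541, 2574, 1930.4 and 1783 with testosterone. The WT groups did not overlap, and in ARNoC only the lowest testosterone library lay within the vehicle range. The change was 0.40 ± 0.10 in WT (edgeR adjusted p = 0.00287) and 0.41 ± 0.10 in ARNoC (adjusted p = 0.00235), and under total-count scaling it was -0.02 in WT and 0.07 in ARNoC, neither past the test.

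Ddit3 (chr10:127290774-127296288), which encodes Chop, the factor tied to cell death in prolonged stress, did not rise. It stood at 186, 140.5, 165, 170.5 and 201 normalized counts with vehicle and 132, 171, 144, 132 and 159 with testosterone in WT. The ARNoC libraries held 206, 161, 192, 164 and 157 with vehicle and 122, 169, 171, 110.4 and 127 with testosterone. The groups overlapped in both genotypes. Its change was -0.21 ± 0.14 in WT (edgeR adjusted p = 0.22) and -0.33 ± 0.13 in ARNoC (adjusted p = 0.0602). The ARNoC value passed with DESeq2 (-0.35, adjusted p = 0.041), limma-voom (-0.39), limma-trend (-0.35) and upper-quartile scaling (-0.37), and also when ARNoC testosterone library 2 (-0.44) or 3 (-0.46) or any 1 of the WT testosterone libraries (-0.37) was left out. Under total-count scaling Ddit3 fell in both genotypes, with -0.64 (adjusted p = 4.86e-04) in WT and -0.68 (adjusted p = 3.12e-04) in ARNoC. The exons of Ddit3 and of Mars1, which encodes methionyl-tRNA synthetase, share 68 bases on opposite strands, and whether reads were counted by strand is not given in the sources used here.

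Atf5, a factor of the same family that is linked to mitochondrial stress, stood at 271, 179, 156, 169.5 and 266 normalized counts in WT with vehicle and 131, 97.8, 101, 149 and 161 with testosterone. That was a fall of -0.68 ± 0.20 in WT (edgeR adjusted p = 0.00911), with 1 testosterone library inside the vehicle range. In ARNoC the change was -0.01 ± 0.19, from 174 ± 20.6 (SD, n = 5) to 172 ± 48.3. Cebpb, a C/EBP partner for Atf4, was scarce at 4.65 to 36.2 normalized counts over all libraries, with changes of -0.71 ± 0.44 and -0.53 ± 0.42 that did not pass, although under total-count scaling it fell in WT (-1.11, adjusted p = 0.0336). Exons of Tmem189 cover 20.7% of those of Cebpb on the opposite strand, so the counts of Cebpb may depend on how reads shared by the genes were handled.

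**Figure D3:**
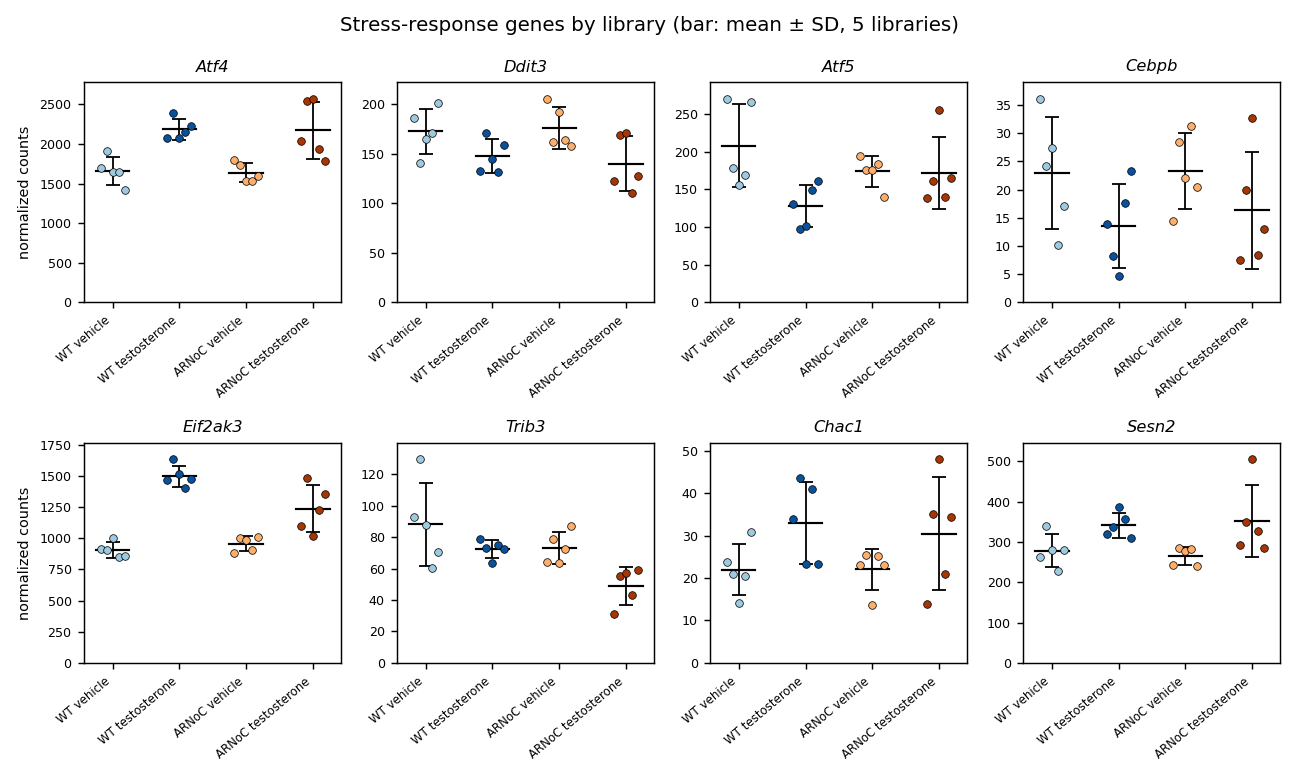
Normalized counts (vertical axis) of 8 transcription factors, kinases and stress effectors in each library, with points for libraries and bars for mean ± SD over 5 libraries. Atf4 and Eif2ak3 sit higher with testosterone in both genotypes while Ddit3 and Cebpb overlap between treatments; the WT rise of Atf4 is -0.02 under total-count scaling.

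Of the kinases that phosphorylate eIF2, both members rose. Eif2ak3 stood at 914, 909.9, 1007, 849 and 862 normalized counts in WT with vehicle and 1467, 1635, 1515, 1406 and 1476 with testosterone. In ARNoC the counts were 883, 1001, 987, 908 and 1008 with vehicle and 1098, 1484, 1021, 1229 and 1358 with testosterone. Neither genotype showed overlap, though the lowest ARNoC testosterone library lay just above the vehicle libraries. The rise was 0.73 ± 0.08 in WT (edgeR adjusted p = 8.2e-07) and 0.38 ± 0.08 in ARNoC (adjusted p = 0.00125), and under total-count scaling it was 0.31 in WT, still past the test, and 0.03 in ARNoC (adjusted p = 0.762), which was not. Eif2ak4 rose by 0.47 ± 0.09 in WT and by 0.33 ± 0.09 in ARNoC, and both calls were lost under total-count scaling (0.05 and -0.02).

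The feedback genes and effectors downstream of Atf4 did not follow it as a block. Ppp1r15a (Gadd34), which steers the phosphatase that restores eIF2, changed by 0.09 ± 0.14 in WT and 0.01 ± 0.14 in ARNoC and did not pass, and under total-count scaling it fell in WT (-0.33). Trib3, a pseudokinase that restrains Atf4, stood at 64, 78.5, 63.8, 72.2 and 87 normalized counts in ARNoC with vehicle and 30.8, 55, 57.4, 43.2 and 59.4 with testosterone. These libraries did not overlap, and Trib3 fell by 0.57 ± 0.20 on the log2 scale (edgeR adjusted p = 0.0296), a call lost without ARNoC vehicle library 2 (-0.54) or 5 (-0.50). In WT its change was -0.27 ± 0.20 and did not pass, but under total-count scaling it fell (-0.69, adjusted p = 0.0034).

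Sesn2, which signals amino acid shortage to mTORC1, rose in ARNoC by 0.42 ± 0.14 (edgeR adjusted p = 0.0207). That call was lost without library 3 of ARNoC with testosterone (0.21) or library 1 of ARNoC with vehicle (0.39), when only the ARNoC groups were fitted (0.38) and under total-count scaling (0.07). In WT the change of Sesn2 was 0.31 ± 0.14 (adjusted p = 0.0835), and it passed without WT vehicle library 2 (0.39) or ARNoC testosterone library 3 (0.27), and stood at -0.12 under total-count scaling. Chac1, which breaks down glutathione, was near the lower end of the counts at 13.7 to 48 per library. Its changes of 0.60 ± 0.30 and 0.46 ± 0.30 did not pass. The Chac1 promoter holds the element printed above.

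The 3 enzymes that make serine rose in both genotypes, though under total-count scaling only Phgdh passed in WT and Psat1 and Phgdh in ARNoC. Phgdh (chr3:98313170-98339990), which commits a glycolytic intermediate to serine, stood at 318, 284, 297, 308 and 236 normalized counts in WT with vehicle and 885, 984, 791, 884 and 789.6 with testosterone. ARNoC libraries held 369.5, 355, 424, 302 and 374 with vehicle and 787, 1297, 973, 1082 and 1072 with testosterone. In both genotypes the groups lay far apart, and Phgdh rose by 1.59 ± 0.12 in WT (edgeR adjusted p = 2.66e-09) and by 1.52 ± 0.12 in ARNoC (adjusted p = 4.26e-09), 3.02-fold and 2.86-fold.

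Psat1 (chr19:15904678-15947337), the transaminase of the next step, was more scattered, at 199, 61.5, 110.2, 119.5 and 148 normalized counts in WT with vehicle and 139, 227, 200.1, 249 and 238 with testosterone. In ARNoC it stood at 139, 148, 61.6, 109.8 and 59.3 with vehicle and 260.4, 318, 395, 329 and 233 with testosterone. The WT groups overlapped and the ARNoC groups did not. The rise was 0.74 ± 0.28 in WT (edgeR adjusted p = 0.0415) and 1.57 ± 0.28 in ARNoC (adjusted p = 1.69e-04). The WT call was lost without library 2, 3 or 4 of WT with vehicle, library 2, 3, 4 or 5 of WT with testosterone or any 1 ARNoC testosterone library, at values from 0.57 to 0.71. It was also lost with upper-quartile scaling (0.68), with no filter on low counts (0.68) and under total-count scaling (0.31, adjusted p = 0.344). The same held without WT vehicle library 2, WT testosterone library 2 and ARNoC vehicle library 5 together (0.54, edgeR adjusted p = 0.111). Psph, the phosphatase that completes serine, rose by 0.51 ± 0.11 in WT and 0.38 ± 0.11 in ARNoC, and shares 10.4% of its exon bases with Cct6a on the opposite strand. Both calls of Psph were lost under total-count scaling (0.09 and 0.03), and that in ARNoC also with no filter on low counts (0.33).

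The transsulfuration enzymes, which pass homocysteine and serine on to cysteine, rose in both genotypes. Cbs (chr17:31608894-31637238), the first of them, stood at 398, 486, 561, 323 and 285 normalized counts in WT with vehicle and 912, 897, 732, 1008 and 947 with testosterone. Its ARNoC counts were 563, 297, 495, 398 and 483 with vehicle and 1296, 1219.8, 1017, 947 and 1201 with testosterone. No testosterone library overlapped the vehicle libraries of its genotype. The rise was 1.14 ± 0.18 in WT (edgeR adjusted p = 3.51e-05) and 1.35 ± 0.17 in ARNoC (adjusted p = 4.72e-06).

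Cth (chr3:157894248-157925077), which releases cysteine, stood at 37.2, 23.1, 46.4, 47.2 and 47.9 normalized counts in WT with vehicle and 123, 104, 79.1, 101 and 102 with testosterone. In ARNoC the values were 40.3, 53.8, 47.9, 40.8 and 39.8 with vehicle and 117, 116, 105, 103 and 146 with testosterone. The groups were separate in both genotypes. Cth rose by 1.34 ± 0.18 in WT (edgeR adjusted p = 6.73e-06) and by 1.40 ± 0.18 in ARNoC (adjusted p = 3.37e-06).

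Asparagine and proline synthesis rose too. Asns (chr6:7675169-7693254), which makes asparagine from aspartate and glutamine, holds the element shown above just upstream of its RefSeq start, inside the gene span given here. It stood at 786, 968, 651, 693 and 588 normalized counts in WT with vehicle and 1423, 1774, 1433, 1309 and 1418 with testosterone. In ARNoC the libraries held 689, 851, 792, 631 and 998 with vehicle and 1279.7, 1578, 1196, 1481 and 1346 with testosterone. Without overlap in either genotype, Asns rose 2.01-fold in WT (edgeR adjusted p = 6.12e-06) and 1.74-fold in ARNoC (adjusted p = 8.05e-05), each with an SE of 0.13 on the log2 scale.

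Pycr1 (chr11:120635712-120643769), the mitochondrial enzyme that finishes proline, was among the strongest responders. Its normalized counts went from 549.6, 432, 434, 406 and 298 in WT with vehicle to 2229.7, 2712, 2317, 2140.2 and 2128 with testosterone. In ARNoC they went from 479.5, 627, 458, 402 and 710.3 to 1390.3, 1983, 961, 1905 and 1746. Every testosterone library lay above the vehicle libraries, but the ARNoC testosterone libraries all lay below those of WT. The rise was 2.45 ± 0.19 in WT (5.46-fold, edgeR adjusted p = 6.24e-09) and 1.58 ± 0.19 in ARNoC (2.99-fold, adjusted p = 1.41e-06).

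Aldh18a1 (chr19:40550257-40588463), which opens proline synthesis from glutamate, stood at 785, 792, 747, 652 and 610.3 normalized counts in WT with vehicle and 1592, 2026, 1762, 1670.3 and 1556 with testosterone. ARNoC libraries held 729.7, 804, 719.7, 690.4 and 860.3 with vehicle and 1183, 1412, 1199, 1633 and 1408 with testosterone. Vehicle and testosterone did not overlap, and 4 of the 5 ARNoC testosterone libraries lay below all those of WT. It rose by 1.27 ± 0.10 in WT (edgeR adjusted p = 6.74e-09) and by 0.85 ± 0.10 in ARNoC (adjusted p = 1.22e-06).

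**Figure D4:**
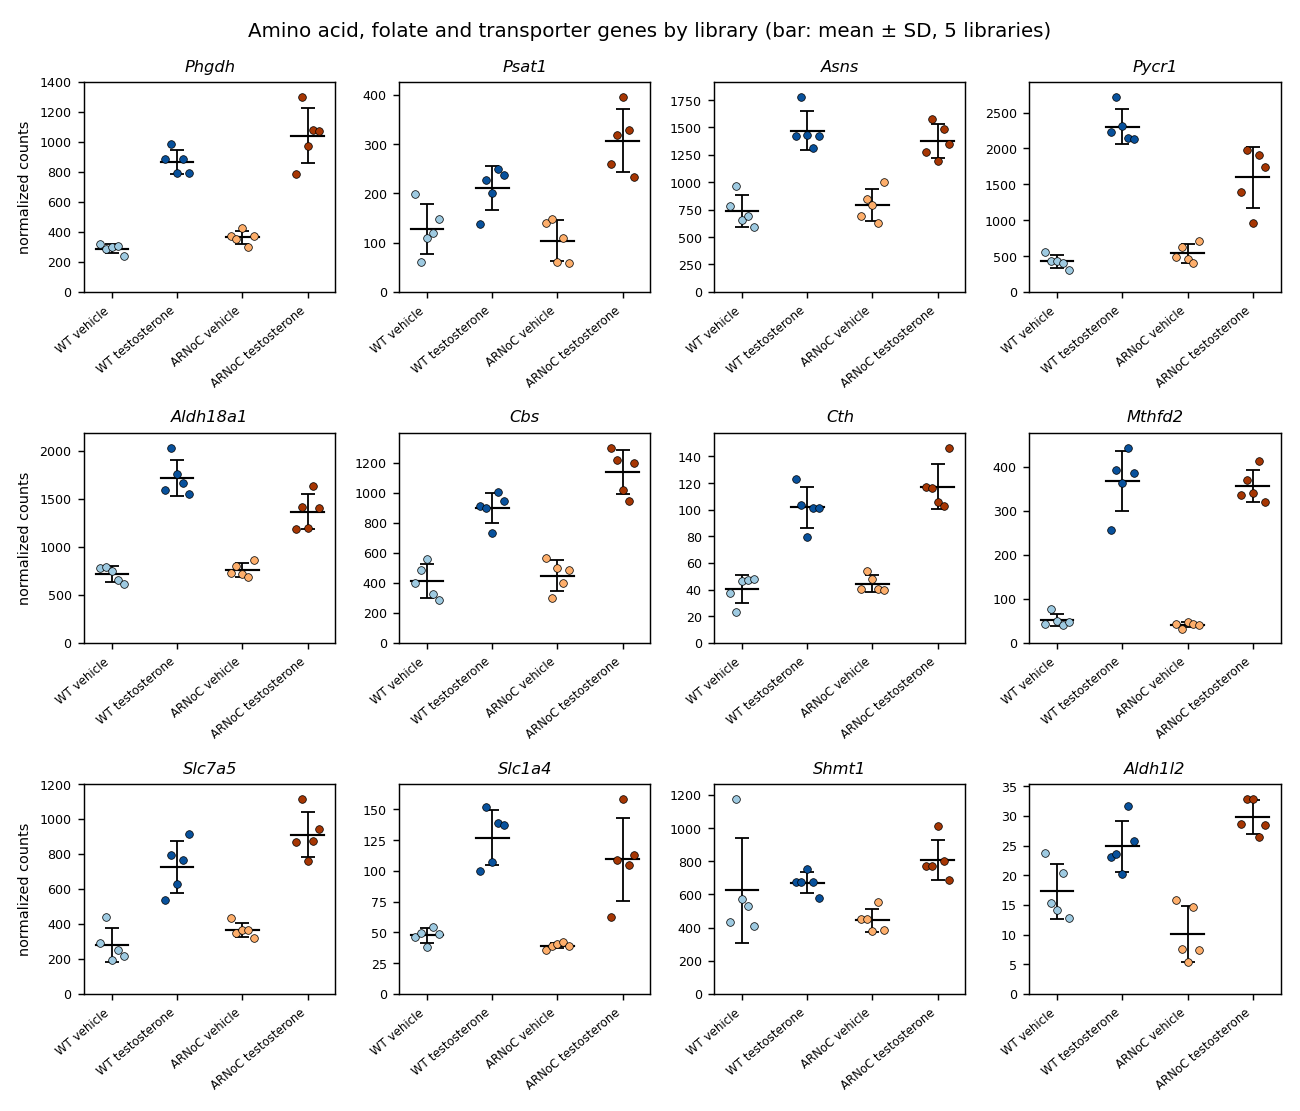
Normalized counts (vertical axis) of 12 genes of amino acid synthesis, folate metabolism and transport in each library, with bars for mean ± SD over 5 libraries. Pycr1 reaches 2306 ± 239.7 in WT and 1597 ± 422 in ARNoC with testosterone, and WT vehicle library 2 stands alone at 1173 for Shmt1.

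The folate enzymes divided. Mthfd2 (chr6:83305691-83325908), the mitochondrial dehydrogenase that yields formyl units, had the greatest rise of the 44 genes in each genotype. It stood at 43.4, 76.8, 49.7, 41.7 and 47.9 normalized counts in WT with vehicle and 256, 392, 363, 442 and 386 with testosterone. In ARNoC it stood at 41.7, 31.7, 47.1, 42.9 and 40.8 with vehicle and 335, 369, 339.6, 412 and 320.5 with testosterone. The lowest testosterone library exceeded the highest vehicle library by a wide margin in each genotype. The rise was 2.84 ± 0.17 in WT (7.14-fold, edgeR adjusted p = 1.25e-10) and 3.13 ± 0.17 in ARNoC (8.75-fold, adjusted p = 3.59e-11).

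Shmt2, which feeds serine into the mitochondrial branch ahead of Mthfd2, did not move with it: its change was 0.00 ± 0.10 in WT and 0.04 ± 0.10 in ARNoC, and under total-count scaling it fell (-0.42 and -0.31). Mthfd1l, which releases mitochondrial formate, changed by -0.05 ± 0.21 and -0.37 ± 0.21 and did not pass, but under total-count scaling it fell in ARNoC (-0.72). The cytosolic trifunctional enzyme Mthfd1 rose by 0.27 ± 0.10 in WT (edgeR adjusted p = 0.0302) and 0.25 ± 0.09 in ARNoC (adjusted p = 0.0456), values that turn to -0.15 and -0.10 under total-count scaling and did not pass in either genotype with upper-quartile scaling (0.22 and 0.21) or with no filter on low counts (0.23 and 0.20). The Mthfd1 call in WT was lost without WT vehicle library 1, 4 or 5 or any 1 WT testosterone library (0.21 to 0.26). In ARNoC it was lost without WT vehicle library 1 or 3, any 1 WT testosterone library, library 1, 2 or 4 of ARNoC with vehicle, or library 2, 3 or 4 of ARNoC with testosterone (0.16 to 0.25). The ARNoC call was also lost with limma-trend (0.23) and when only the ARNoC groups were fitted (0.21).

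The cytosolic Shmt1, Aldh1l1 and the mitochondrial Aldh1l2, which oxidises formyl units to carbon dioxide, rose in ARNoC and did not pass in WT. Aldh1l2 (chr10:83487450-83534140) was the scarcest of the 44 genes per length of exon, at 23.8, 15.4, 14.1, 20.4 and 12.8 normalized counts in WT with vehicle and 23.1, 23.6, 20.2, 31.7 and 25.8 with testosterone. In ARNoC it went from 15.8, 7.6, 5.32, 14.7 and 7.41 to 28.7, 32.8, 32.8, 26.4 and 28.5. The WT groups overlapped and the ARNoC groups did not, and 3 of the 5 vehicle libraries of ARNoC lay below all those of WT. Its change was 0.54 ± 0.26 in WT (edgeR adjusted p = 0.112) and 1.56 ± 0.27 in ARNoC (adjusted p = 1.17e-04). Exons of D10Wsu102e cover 14.1% of those of Aldh1l2 on the opposite strand.

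Shmt1 turned on a single library. Its normalized counts in WT with vehicle were 431, 1173, 574, 532 and 411, of which library 2 stood alone, and with testosterone they were 674, 675, 754, 672 and 579.9. The WT change was 0.11 ± 0.21 (edgeR adjusted p = 0.717) with all libraries and 0.47 (adjusted p = 0.00731) without WT vehicle library 2, while under total-count scaling it was -0.31 and did not pass. In ARNoC Shmt1 went from 445 ± 69.5 (SD, n = 5) to 809 ± 121, a rise of 0.87 ± 0.21 (adjusted p = 0.00321). Aldh1l1, the cytosolic formyltetrahydrofolate dehydrogenase, changed by 0.28 ± 0.13 in WT (adjusted p = 0.0883) and rose by 0.88 ± 0.13 in ARNoC (adjusted p = 1.63e-05), and shares 11% of its exon bases with Gm15756 on the opposite strand. The WT change of Aldh1l1 passed, at 0.39, once WT vehicle library 2, WT testosterone library 2 and ARNoC vehicle library 5 were left out. Under total-count scaling that change was -0.14.

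Among the transporters Slc1a4 and Slc7a5 had the greatest rises. Slc7a5 (chr8:121881150-121907694), the light chain of the leucine exchanger LAT1, stood at 293, 442, 194, 252 and 218 normalized counts in WT with vehicle and 534, 794, 627, 767 and 914 with testosterone. In ARNoC the counts were 431, 348, 368, 364 and 320.4 with vehicle and 868, 1112, 758, 876 and 942 with testosterone. With no overlap in either genotype, Slc7a5 rose by 1.39 ± 0.18 in WT (edgeR adjusted p = 5.16e-06) and by 1.32 ± 0.18 in ARNoC (adjusted p = 8.48e-06).

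Slc3a2, the heavy chain that brings LAT1 to the cell surface, went the other way in WT, from 1959 ± 139 (SD, n = 5) to 1628 ± 162 normalized counts. It fell by 0.26 ± 0.10 on the log2 scale (edgeR adjusted p = 0.0416), a call lost without library 1, 2, 3 or 4 of WT with vehicle or library 3 of WT with testosterone (-0.27 to -0.21). The call of Slc3a2 was also lost without WT vehicle library 2, WT testosterone library 2 and ARNoC vehicle library 5 together (-0.27). Its ARNoC change was -0.13 ± 0.10 and did not pass with all libraries, but passed without ARNoC testosterone library 2 (-0.25) and under total-count scaling (-0.48, adjusted p = 7.5e-05).

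Slc1a4 (chr11:20302180-20332713), a carrier of alanine, serine and cysteine, stood at 46.5, 49.4, 38.1, 54.7 and 49 normalized counts in WT with vehicle and 100.1, 152, 107, 139 and 137 with testosterone. ARNoC libraries held 36, 39.3, 40.3, 41.8 and 38.9 with vehicle and 62.7, 109, 158, 105 and 113 with testosterone. The testosterone libraries were higher throughout, with the most spread in ARNoC. The rise was 1.43 ± 0.19 in WT (edgeR adjusted p = 5.39e-06) and 1.48 ± 0.19 in ARNoC (adjusted p = 3.65e-06). Its paralog Slc1a5, the glutamine carrier, rose by 0.60 ± 0.09 and 0.59 ± 0.09, and the cationic carrier Slc7a1 by 0.64 ± 0.09 and 0.54 ± 0.09. Under total-count scaling the WT call of Slc1a5 (0.18) and the ARNoC call of Slc7a1 (0.19) were lost.

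Slc7a11 rose in ARNoC by 0.70 ± 0.24 (edgeR adjusted p = 0.0256), a call lost without library 3 (0.61) or 4 (0.59) of ARNoC with vehicle, or library 3 (0.54) or 4 (0.66) of ARNoC with testosterone, with no filter on low counts (0.66) and under total-count scaling (0.37). In WT it changed by 0.42 ± 0.24 and did not pass. Slc38a2, a sodium-coupled importer known to respond to amino acid shortage, changed by 0.19 ± 0.12 in WT and 0.30 ± 0.12 in ARNoC (adjusted p = 0.052). The ARNoC value of Slc38a2 passed with DESeq2 (0.30, adjusted p = 0.0436) and without ARNoC vehicle library 2 (0.39) or ARNoC testosterone library 5 (0.34), while under total-count scaling Slc38a2 stood at -0.23 in WT and -0.04 in ARNoC, neither past the test.

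Relative to the median gene, 10 of the 12 cytosolic synthetases rose in each genotype, but under total-count scaling 9 of those calls in WT and 8 in ARNoC were lost. In WT the 10 that passed lay between 0.36 (Iars, for isoleucine) and 0.65 (Mars1, for methionine), and in ARNoC between 0.25 (Iars) and 0.60 (Aars, for alanine). Gars, for glycine, went from 1012 ± 102 (SD, n = 5) to 1501 ± 99.9 normalized counts in WT and from 1047 ± 64.3 to 1572 ± 165 in ARNoC, a rise of 0.58 ± 0.08 and 0.59 ± 0.08, of which total-count scaling left 0.15 (adjusted p = 0.0699) in WT and 0.25 (adjusted p = 0.00649) in ARNoC. The others that passed were Tars for threonine (0.49 and 0.56), Lars for leucine (0.56 and 0.29), Cars for cysteine (0.53 and 0.38), Eprs for glutamate and proline (0.46 and 0.36), Nars for asparagine (0.40 and 0.27) and Yars for tyrosine (0.39 and 0.35).

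The calls that total-count scaling kept were Mars1 in WT (0.23) and Aars (0.26) and Gars in ARNoC, while Nars (-0.02 and -0.08) and Iars (-0.07 and -0.09) in both genotypes, Yars in WT (-0.04) and Lars in ARNoC (-0.05) turned below 0 under it. The ARNoC call of Cars was lost without ARNoC testosterone library 2 (0.27) or 3 (0.30), and that of Iars without any 1 WT testosterone library, library 1, 3 or 4 of ARNoC with vehicle, or library 2, 3 or 4 of ARNoC with testosterone (0.16 to 0.25), as well as with upper-quartile scaling (0.22) and no filter on low counts (0.21). Sars, for serine, and Wars, for tryptophan, did not pass in either genotype. Sars changed by 0.17 ± 0.08 and 0.12 ± 0.08. Under total-count scaling Sars fell in both genotypes (-0.25 and -0.23, edgeR adjusted p = 0.00284 and 0.00684). Wars changed by 0.14 ± 0.15 and 0.16 ± 0.15, and its WT value passed without WT vehicle library 2 (0.32), whereas under total-count scaling Wars stood at -0.28 and -0.19 and did not pass. Exons of Exosc6 cover 14.3% of those of Aars on the same strand, so reads there cannot be given to either gene alone.

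Levels between genes are compared as mean normalized counts per kb of exon. The glutamine carrier Slc1a5 ranked first of the 44 in WT with vehicle, at 1586 per kb, followed by Wars at 1133, Atf4 at 705 and Slc3a2 at 555. The 3 scarcest were Slc1a4 at 12.1, Slc7a11 at 3.47 and Aldh1l2 at 2.30 per kb. With testosterone Slc1a5, Wars and Atf4 still held the first 3 ranks in WT, while Pycr1 moved from rank 22 to rank 5 (108 to 586 per kb) and Mthfd2 from rank 39 to rank 28 (14.9 to 105 per kb). Slc7a5, at 75.5 per kb with vehicle and 196 with testosterone, stayed below its partner Slc3a2, at 555 and 461.

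None of the 44 genes passed edgeR's quasi-likelihood test in a comparison between genotypes. With vehicle, 0 members were higher and 0 lower in ARNoC than in WT, where 0.17% and 0.151% of all genes were. With testosterone the counts were again 0 and 0, where 0.681% of all genes were higher in ARNoC and 1.01% lower. In the interaction, the testosterone response of ARNoC less that of WT, edgeR's quasi-likelihood test called 0% of all genes higher and 0% lower, and so 0 members. These comparisons reuse the libraries of the responses above and are not independent of them.

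At an unadjusted p under 0.05, edgeR's test held 5 members with vehicle (7.49% of all genes), 7 with testosterone (14.7%) and 9 in the interaction (8.56%). DESeq2 called 0, 2 and 0 members in those comparisons, where it called 137, 498 and 29 of the 15261 tested genes. With limma-voom 0 members were called in each. The 2 that DESeq2 called were both lower in ARNoC with testosterone: Aldh18a1 (-0.33, adjusted p = 0.0446) and Eif2ak3 (-0.28, adjusted p = 0.0483). With edgeR, Aldh18a1 passed there without ARNoC testosterone library 4 (-0.41, adjusted p = 0.0303) and Eif2ak3 without ARNoC testosterone library 2 (-0.35, adjusted p = 0.0244).

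The 9 members at an unadjusted p under 0.05 in the interaction fell on both sides. The response of ARNoC was the smaller for Pycr1 (-0.87, 95% interval -1.41 to -0.33, edgeR adjusted p = 0.394), Aldh18a1 (-0.42, -0.71 to -0.13, adjusted p = 0.429), Eif2ak3 (-0.36, -0.60 to -0.11, adjusted p = 0.408) and Lars (-0.27, -0.49 to -0.04, adjusted p = 0.505). It was the greater for Aldh1l2 (1.02, 0.24 to 1.80, adjusted p = 0.476), Psat1 (0.84, 0.02 to 1.65, adjusted p = 0.569), Shmt1 (0.76, 0.13 to 1.39, adjusted p = 0.501) and Aldh1l1 (0.60, 0.23 to 0.97, adjusted p = 0.394). The WT response of Shmt1 that enters this difference was 0.11, and 0.47 without WT vehicle library 2. For Atf5 the interaction was 0.67 (0.10 to 1.24, adjusted p = 0.509). Its ARNoC testosterone library 3 stood at 255 normalized counts and the others of that group at 138 to 165. The intervals are not adjusted for the number of genes. For Atf4 the difference was 0.01 with an interval from -0.28 to 0.30, and for Mthfd2 it was 0.29 with an interval from -0.19 to 0.77, so differences of that size in either gene are not excluded by these libraries.

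**Figure D5:**
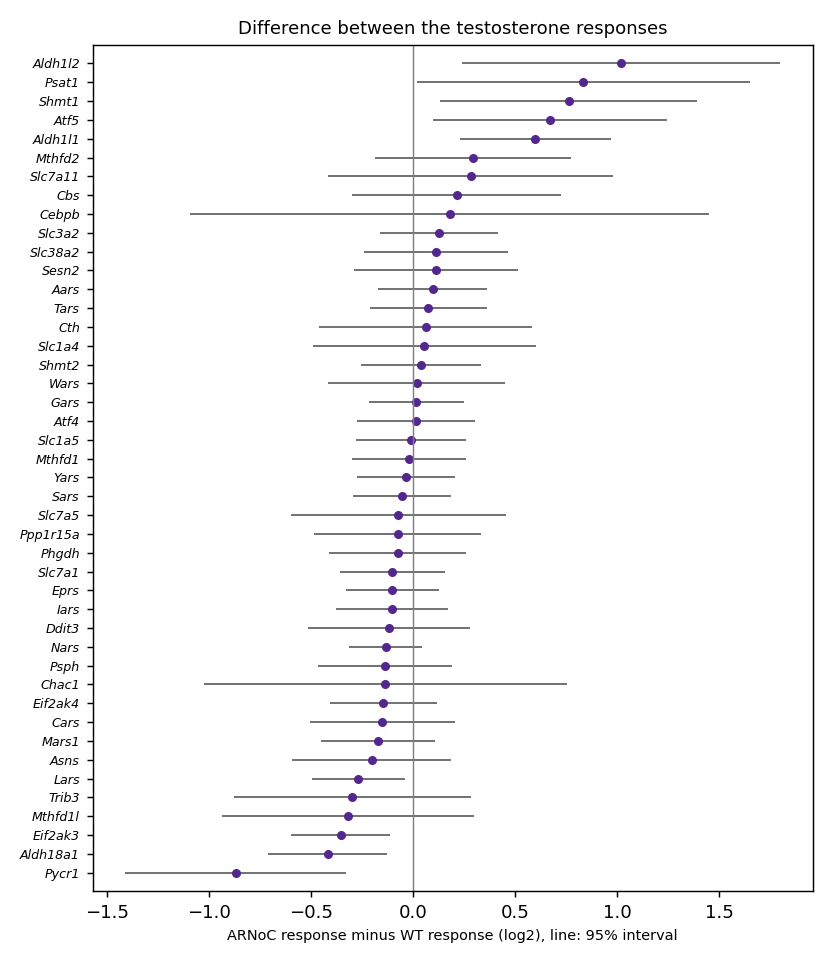
Difference between the testosterone responses, ARNoC minus WT, on the log2 scale (horizontal axis) for each of the 44 genes, with unadjusted 95% intervals as lines. Aldh1l2 lies highest at 1.02 and Pycr1 lowest at -0.87, and no gene passes after adjustment.

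The pathways around these genes were described from further lists, to be read against the shares of all genes given above. Changes and calls in these lists, and in the marker lists further below, are given with trimmed means only. They were not checked gene by gene under total-count scaling, which moves the median of all genes to -0.44 in WT and -0.36 in ARNoC. Rises of about that size or less may therefore not hold under it. Of 27 other stress response genes tested, 9 rose and 2 fell in WT and 8 rose and 0 fell in ARNoC. Eif2b1, a subunit of the exchange factor that eIF2 phosphorylation inhibits, rose by 0.94 ± 0.09 in WT and 1.12 ± 0.09 in ARNoC, and the Atf4 target Ddit4, an inhibitor of mTORC1, by 1.61 ± 0.19 and 1.92 ± 0.19. Eif2b5, another subunit, rose by 0.40 and 0.28. Ndrg1 (-0.90) and Jdp2 (-0.81) fell in WT, and their ARNoC changes of -0.46 and -0.59 did not pass.

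Of 28 other genes of serine, folate and methionine metabolism, 12 rose and 5 fell in WT and 9 rose and 2 fell in ARNoC. Mat2a, which makes S-adenosylmethionine, went from 3827 ± 795 (SD, n = 5) to 38102 ± 4312 normalized counts in WT and from 4215 ± 1090 to 30893 ± 2175 in ARNoC, rises of 3.32 ± 0.17 and 2.88 ± 0.16. Gnmt, which spends S-adenosylmethionine on glycine, rose by 2.08 and 1.69, and Fpgs, which adds the glutamate tail that keeps folate in cells, by 0.99 and 0.84. Sfxn3, of the family of mitochondrial serine carriers, fell by 0.34 and 0.48 on the log2 scale. The folate receptor gene Folr1 (-1.83) and the hydrolase gene Ggh (-0.31) fell in WT, and in ARNoC their changes of -1.14 and 0.09 did not pass.

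Of 13 other genes of proline, glutamine and transaminase reactions, 4 rose and 2 fell in each genotype, where 20.4% of all genes rose and 18.8% fell in WT and 19.4% and 16.8% did in ARNoC. Pycr3 (0.38 in each), a further reductase of proline synthesis, rose in both, and the branched-chain transaminase gene Bcat2 rose in WT (0.55). Gpt2, the mitochondrial alanine transaminase, fell by 0.83 and 0.91 on the log2 scale. The glutamine synthetase gene Glul fell in WT (-0.65), and its ARNoC change of -0.24 did not pass.

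Other transporters moved both ways. Of 23 tested, 9 rose and 5 fell in WT and 10 rose and 5 fell in ARNoC. Slc7a4 (1.03 and 1.07), Slc38a10 (0.88 and 0.63) and the aromatic amino acid carrier Slc16a10 (1.25 and 0.92) rose. The carriers Slc43a2 (-0.70 and -1.11) and Slc38a7 (-0.38 and -0.51) fell, as did Slc6a14 (2.01-fold lower in WT and 1.89-fold lower in ARNoC).

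Of 12 other cytosolic synthetases and scaffold genes 5 rose and 1 fell in WT and 4 rose and 0 fell in ARNoC, and of 20 mitochondrial synthetase genes 5 rose and 2 fell in WT and 4 rose and 1 fell in ARNoC, the rises of the mitochondrial genes being near the 20.4% and 19.4% of all genes. Tars3, a synthetase-like gene for threonine that the count table lists as Tarsl2, rose by 1.64 ± 0.08 in WT (edgeR adjusted p = 8.31e-12) and 1.64 ± 0.08 in ARNoC (adjusted p = 7.54e-12), against 0.49 and 0.56 for Tars. Relative to the median gene, Hars rose by 0.34 and 0.22 and Qars in WT by 0.28, while the scaffold gene Aimp1 fell in WT (-0.26). Whether the small rises of Hars and Qars hold under total-count scaling was not tested. Among mitochondrial genes Gatc (0.67 and 0.46), Mars2 (0.53 and 0.50) and Lars2 (0.40 and 0.45) rose in both genotypes, and Vars2 (-0.26) and Wars2 (-0.53) fell in WT.

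Some, but not all, of the lists that mark other cell types moved with the treatment. Their counts are to be read against all genes, of which 20.4% rose and 18.8% fell in WT. In ARNoC 19.4% rose and 16.8% fell. All 8 myeloid markers fell in both genotypes, their summed normalized counts going from 1531 to 6003 with vehicle to 836 to 1249 with testosterone in WT, and from 1583 to 4440 to 993 to 1780 in ARNoC. Of 8 fibroblast markers 5 fell in WT, with sums of 8273 to 51140 with vehicle and 4343 to 16283 with testosterone, and 2 fell in ARNoC, with sums of 5569 to 42057 and 8367 to 22705. Of 5 tested lymphocyte markers 3 fell in each genotype, of 5 basal epithelial markers 2 fell in WT and 3 in ARNoC, and of 6 endothelial markers 2 fell in WT and 0 in ARNoC. Of 6 smooth muscle markers 1 rose in WT and 4 in ARNoC (median changes 0.60 and 0.83). Of the 9 prostate epithelial markers 5 rose and 2 fell in WT and 6 rose and 3 fell in ARNoC. Of 4 adipocyte markers and 4 skeletal muscle markers 0 passed in either genotype. Of 4 tested plasma cell markers 2 rose in WT and 1 in ARNoC. Of 3 tested urothelial markers 1 rose and 1 fell in WT, and 1 fell in ARNoC. The part of these lists in the rises of the 44 genes was not tested. The lowest fibroblast sum of each WT group was in library 2. In ARNoC it was in library 5 with vehicle and library 2 with testosterone. These libraries were the highest of their group in 21 (WT vehicle), 19 (WT testosterone), 15 (ARNoC vehicle) and 16 (ARNoC testosterone) of the 44 genes. ARNoC testosterone library 3, with the highest fibroblast sum of its group (22705), was the highest in 18. How often each library was the highest over all tested genes was not counted, so these numbers cannot be read as particular to the 44. A fit without WT vehicle library 2, WT testosterone library 2 and ARNoC vehicle library 5 kept ARNoC testosterone library 2. There the median change of the 44 genes was 0.48 in WT and 0.43 in ARNoC.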

How the data were processed

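Per the submitters' processing notes, the authors used FastQC 0.11.7, HISAT2, SAMtools 1.5, HTSeq and DESeq2 with the mouse build mm10. Annotation and strand setting: not given in the sources used here. Deposited counts are the authors' raw counts per gene symbol. The deposited signal values are normalized counts, a count divided by the DESeq2 size factor of its library, and serve as levels here. The size factors that scale those levels were recovered here as the median over genes of counts divided by normalized counts.

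Of the 43472 genes, 15261 were tested, those that reached 10 normalized counts in 5 or more of 20 libraries. Counts, scaled by trimmed means of M-values, went into edgeR 4.0.16 (R 4.3.3) with 1 mean per group and quasi-likelihood F-tests for 5 contrasts and Benjamini-Hochberg adjustment at 0.05; SE and 95% intervals come from the same F-tests. Alternatives were other scalings, filters and tests (DESeq2 1.42.0, limma 3.58.1), a fit on only the groups compared, and left-out libraries. The tests were checked on simulated data. Libraries held 8861646 to 21600352 counts. Replicates differed beyond sampling noise in all 40 pairs (chi-square per degree of freedom 7.51 to 41.6), and each was counted once. Numbers of libraries follow label order and pair nothing.

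The members and lists were chosen with earlier results of these data known. Library values are given, by rule, for Atf4, Ddit3 and each member with a called change of at least 1 (log2); from each further list up to 3 genes each way with the smallest adjusted p in WT are named; some items that these rules take are not reported here. Values of other members, and all promoter stretches but those of Asns and Pycr1, were chosen after values were seen. Mars1 was matched by its RefSeq synonym, and gene positions are those of GENCODE M21 (mm10), 1-based. Figures were drawn with matplotlib 3.10.9.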

Additional observations from a re-analysis of the deposited data

Results flagged for a closer look

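In 176 groups of 5 libraries (44 genes in 4 groups) 11 had a library that stood apart from the other 4 by most of the group's range. Chance marks about 1 group in 20. WT vehicle library 2 stood above its group in 4 genes: Shmt1 (1173 normalized counts, others 411 to 574), Mthfd2 (76.8, others 41.7 to 49.7), Gars (1192, others 948 to 993) and Mars1 (668, others 521 to 561). WT testosterone library 2 was high in Asns (1774, others 1309 to 1433), and WT testosterone library 3 was low in Psph (125.6, others 177 to 197). ARNoC vehicle library 3 was low in Eif2ak4 (290.3, others 353 to 371) and Chac1 (13.7, others 23.0 to 25.3). ARNoC vehicle library 4 was low in Psph (104.6, others 127 to 135) and Slc1a5 (6041, others 7572 to 7988). ARNoC testosterone library 3 was high in Atf5 (255.3, others 138 to 165).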

How the results depend on the processing

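Each response was recomputed under 31 alternatives. Of 29 calls in WT 13 held in every alternative and 26 in every one but total-count scaling; of 33 in ARNoC 16 and 26 did. Under total-count scaling 12 members rose and 8 fell in WT and 16 rose and 6 fell in ARNoC, and 5 calls turned direction in each genotype: in WT Atf4 (-0.023), Mthfd1 (-0.15), Nars (-0.024), Iars (-0.065) and Yars (-0.039), and in ARNoC Eif2ak4 (-0.018), Mthfd1 (-0.10), Nars (-0.076), Iars (-0.090) and Lars (-0.054). That scaling divides by totals in which a few genes take a larger share with testosterone. In ARNoC 2 members fell with upper-quartile scaling, DESeq2, limma-voom and limma-trend, against 1. Over all genes 2967, 2790, 2599 and 2603 fell there, against 2565. The count of members was also 2 without WT vehicle library 2, WT testosterone library 2 and ARNoC vehicle library 5. In that fit 2621 of all genes fell. In WT 1 member fell without those 3 libraries, against 2, and 2635 of all genes fell, against 2871. DESeq2 called 2 members lower in ARNoC with testosterone, against 0, and 298 of all genes, against 154. Leaving out 1 library gave 25 to 29 members that rose and 1 to 2 that fell in WT, 27 to 33 and 0 to 3 in ARNoC, and 0 to 1 lower in ARNoC with testosterone. Over all genes, 2538 to 3205 rose and 2470 to 3343 fell in WT in those fits. In ARNoC 2408 to 3006 of all genes rose and 2252 to 3039 fell, and 95 to 171 were lower in ARNoC with testosterone. The other genotype and interaction counts of members stayed at 0. No paired analysis was possible because the labels give no replicate numbers shared between groups. Counts per library limit Cebpb, Chac1 and Aldh1l2, which stood below 50 normalized counts in every library.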

Other observations

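Around S-adenosylmethionine, genes named here after their values were seen also differed. Ahcy, which splits S-adenosylhomocysteine and returns homocysteine to the pathway of Cbs, went from 60.9 ± 10.6 (SD, n = 5) to 134.5 ± 16.4 normalized counts in WT and from 67.1 ± 11.8 to 159.9 ± 9.58 in ARNoC, rises of 1.15 ± 0.14 and 1.26 ± 0.14. Amt, of the glycine cleavage system, rose by 0.99 ± 0.11 and 0.72 ± 0.11. Gldc, of the same system, rose in WT by 1.64 ± 0.52 (edgeR adjusted p = 0.0173) with libraries from 10.6 to 90.7 normalized counts, and its ARNoC change of 0.56 ± 0.49 did not pass.

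Gatb, a subunit of the mitochondrial enzyme that forms glutaminyl-tRNA, was the single gene of the further pathway lists with a call between genotypes. With testosterone it stood at 821 ± 83.6 (SD, n = 5) normalized counts in WT and 467 ± 95.3 in ARNoC, a difference of -0.81 ± 0.17 (edgeR adjusted p = 0.0131), and all 5 ARNoC libraries lay below those of WT. With vehicle the difference was -0.43 ± 0.17 (adjusted p = 0.479).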
